A study of Drosophila melanogaster with 3 samples.

Results

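The Imd and Toll pathways are the main routes by which flies switch on NF-kappaB transcription factors. In the Imd pathway, bacterial peptidoglycan bound by the receptor PGRP-LC is relayed by the adaptor imd and a kinase complex that contains key to the factor Rel, while pirk restrains the receptor. In the Toll pathway, the processed ligand spz binds the receptor Tl, and signalling removes the inhibitor cact, which frees dl and Dif to enter the nucleus. In the early embryo the same Toll cascade sets the dorsoventral axis through dl. Fly larvae lacking Atf3, a basic leucine zipper factor of the ATF/CREB family, have been studied for disturbed immune and metabolic balance, and the question here was where Atf3 calls lay at the genes of these pathways.

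The set holds 10 genes, chosen by name and all found in the Ensembl annotation, out of 13945 protein-coding genes on the 6 chromosome arms. They are the Imd genes PGRP-LC, imd, key, pirk and Rel and the Toll genes spz, Tl, cact, dl and Dif. Calls came from 1 group of 3 biological replicates of whole embryos, aged 0 to 24 h and of both sexes, from a line (A3-3-GFP) that carries a stable Atf3 transgene with GFP at its C-terminal end. Anti-GFP antibody was used for the chromatin immunoprecipitation. Control libraries were not analysed here and the samples form a single group, so nothing was compared between conditions, and a whole embryo mixes cell types in which binding cannot be told apart.

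A call is an interval from the authors' peak lists, with a summit, and was taken when its summit lay in a gene or up to 2 kb to either side. The list of peaks kept for reproducible rank between replicates (irreproducible discovery rate, IDR) held 2896 calls, the relaxed list from the pooled replicates 27754, and the list of each replicate 30000. Signal is the authors' own value for a peak and has no common scale between lists, so calls are given by rank within their list, with 1 the highest. The lists carry no read totals, so sequencing depth is unknown. The IDR calls were exactly the 2896 pooled calls of highest signal, so a single IDR call need not be matched in every replicate. A promoter call had its summit within 500 bp of an annotated transcription start site (TSS) of the gene.

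Of the 10 genes, 3 had an IDR call, each with 1: the promoter of cact, the promoter of imd and a site inside Dif. An IDR summit in the gene or 2 kb either side was found for 25.8% of all protein-coding genes, so 3 of 10 is near the background. An IDR promoter call was found for 2 of the 10 genes and for 14.2% of all protein-coding genes. The 10 genes are longer than usual, with a median length of 7.3 kb against 2.17 kb over all protein-coding genes, and longer windows collect more calls. Per 100 kb, the members' windows held 1.93 IDR calls, against 2.56 in the windows of all protein-coding genes together.

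The bases from 100 before to 100 after the summits of the cact call and of the call inside Dif are shown because these 2 calls carry the result for the Toll genes. Both are from the release 6 (dm6) genome, plus strand, and capitals would mark a match to any of the 6 motifs searched.
cact, chr2L:16325693-16325893: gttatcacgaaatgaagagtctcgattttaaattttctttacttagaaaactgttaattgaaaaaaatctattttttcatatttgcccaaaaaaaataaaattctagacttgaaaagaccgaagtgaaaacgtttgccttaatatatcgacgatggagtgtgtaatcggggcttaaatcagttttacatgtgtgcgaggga
Dif, chr2L:17430016-17430216: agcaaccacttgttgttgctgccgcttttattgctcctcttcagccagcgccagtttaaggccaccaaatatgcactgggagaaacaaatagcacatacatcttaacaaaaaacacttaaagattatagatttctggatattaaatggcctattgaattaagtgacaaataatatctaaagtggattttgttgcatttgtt

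Neither window held a match, nor did that of the imd call. The motifs were searched on both strands: the CRE/ATF palindrome TGACGTCA, its core TGACGT (every palindrome match is also a core match), the AP-1 motif TGANTCA, the promoter element DRE with TATCGATA, the GAGA factor motif GAGAGAG, and the kappaB motif bound by dl, Dif and Rel. In windows of 100 bases either side of the summit they occurred in 1.52%, 6.04%, 5.46%, 4.39%, 4.66% and 0.898% of all IDR calls respectively. With shares this low, no match in 3 calls says only that the letters are not in these windows. The cact window was 31.3% GC and the Dif window 35.8%, against a median of 36.8% over all IDR calls.

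The cact gene (FBgn0000250, chr2L:16313036-16326207, minus strand) encodes the IkappaB protein that holds dl and Dif in the cytoplasm. Its IDR call spanned chr2L:16325593-16325992 and had a pooled signal of 287 and a pooled rank of 275. The call ranked 253 in replicate 1, 253 in replicate 2 and 398 in replicate 3, a mean of 301 ± 83.7 (SD, n = 3). The 3 replicate summits lay within 28 bp of each other. The annotation gives cact 4 start sites, and the summit fell between them: 414 bp and 308 bp downstream of the upstream pair, and 168 bp and 373 bp upstream of the downstream pair. The summit was inside the gene but in no exon. No other gene had a TSS within 500 bp, so of the 3 IDR calls only that at cact was at a start of the member alone.

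Dif (FBgn0011274, chr2L:17413248-17433161, minus strand) encodes an NF-kappaB factor of the Toll response. Its IDR call, chr2L:17429916-17430315, had a pooled signal of 122 and a pooled rank of 1445, close to the median signal of 122 over the IDR list. It ranked 2722 in replicate 1, 646 in replicate 2 and 2441 in replicate 3, a mean of 1936 ± 1126 (SD, n = 3), with the summits within 80 bp. All 3 ranks were thus inside the first 2896, with replicate 2 the highest. The summit lay 3045 bp downstream of the upstream Dif start and 1917 bp upstream of the other, in a Dif intron by the structure of Dif alone. It also lay in an exon of lncRNA:CR44409, a non-coding gene nested in Dif on the opposite strand, 410 bp from its TSS. The call was therefore counted at the promoter of another gene, and with that rule 0 of the 10 genes had an intronic IDR call outside every promoter, against 4.39% of protein-coding genes. With other genes ignored, Dif was 1 of 10, against 4.83%. Dif had no pooled call within 500 bp of its own starts, although replicates 1 and 2 each listed 1 there, at ranks 25067 and 18172.

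**Figure D1:**
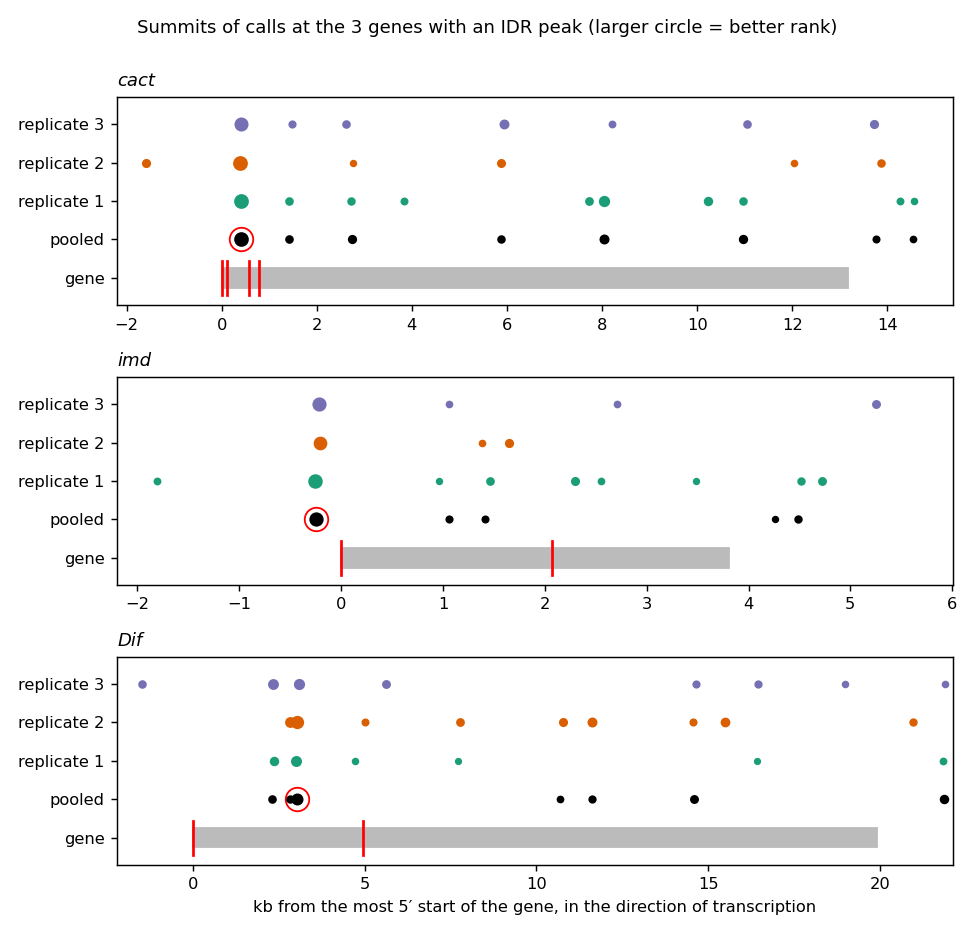
Summits of all calls at cact, imd and Dif, by list, against distance in kb from the most 5′ start of each gene along the direction of transcription. Larger circles have better ranks, red circles mark IDR calls, red bars mark annotated starts and grey bars the genes; the IDR call at each gene is matched by a large circle in all 3 replicate lists.

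The imd gene (FBgn0013983, chr2R:18409796-18413599, minus strand) encodes the death domain adaptor that gives the pathway its name. Its IDR call, chr2R:18413651-18414050, had a pooled signal of 262 and a pooled rank of 341. It ranked 296 in replicate 1, 494 in replicate 2 and 363 in replicate 3, a mean of 384 ± 100.7 (SD, n = 3), with the summits within 47 bp. The summit lay 252 bp upstream of the most 5′ imd start and 200 bp upstream of a start of Dp1, a gene for a KH domain nucleic acid-binding protein that is read in the opposite direction. It lay outside imd but within the span of Dp1, in no exon, so the call cannot be assigned to imd rather than Dp1. The other 4 pooled calls of the imd window were also within 500 bp of a TSS of a neighbour, 2 of them at Dp1 and 2 at GstE9, a glutathione S-transferase gene, and ranked from 14213 to 27578.

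Among the first 2896 calls of each replicate by signal, replicate 1 held 5 calls at 4 of the 10 genes. Replicates 2 and 3 each held 3 calls at 3 genes. The share over all protein-coding genes is not given for these top calls, so the counts cannot be set against a background. The genes in replicates 2 and 3 were cact, imd and Dif. Replicate 1 added a call at Rel and another inside cact. The extra cact call of replicate 1 was intronic and ranked 2298. The matching pooled call, 7243 bp downstream of the nearest start, ranked 5156, was found at rank 20163 in replicate 3 and had no match in replicate 2.

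**Figure D2:**
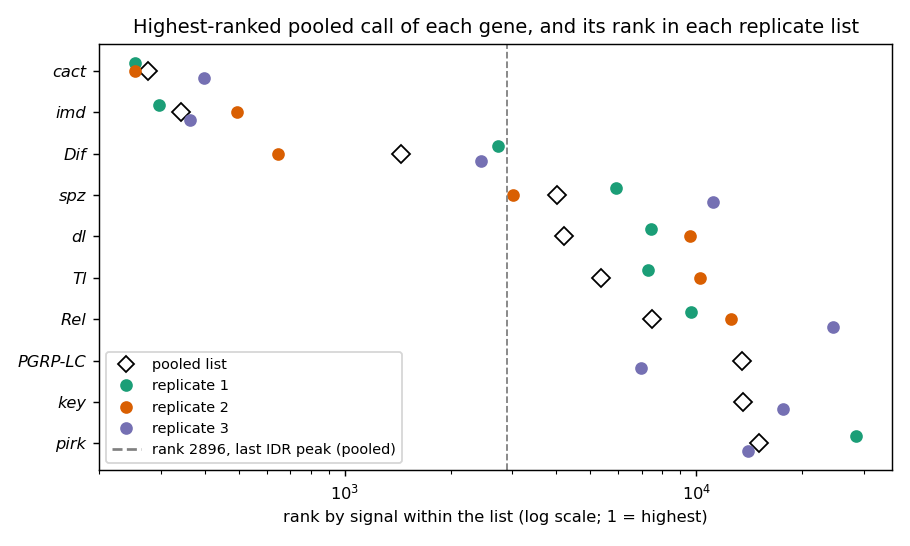
Rank by signal (log axis, 1 is the highest) of the highest-ranked pooled call at each of the 10 genes (diamonds) and of its match in each replicate list (circles, missing where no call matched). The calls at cact, imd and Dif lie left of the last IDR rank of 2896 in every list, and those of the other 7 genes lie right of it.

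Ordered by their highest pooled call, the genes ran cact (275), imd (341), Dif (1445), spz (4013), dl (4194), Tl (5349), Rel (7480), PGRP-LC (13461), key (13625) and pirk (15078). The replicate ranks of cact and imd overlapped, so these neighbours did not differ beyond the replicate spread. Those of imd and Dif did not overlap, with 494 the last for imd and 646 the first for Dif. Those of Dif and spz did not overlap either, with 2722 the last for Dif and 3002 the first for spz. From spz to Rel each neighbouring pair overlapped. PGRP-LC and key were each matched in replicate 3 alone, at 6979 and 17609, so the spread of these calls is not known. From dl downwards the top calls of all genes except Rel were missing from at least 1 replicate list.

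Relaxed calls were spread over all 10 genes. A pooled call in the gene or 2 kb either side was present for 10 of 10, against 81.8% of protein-coding genes, and a pooled promoter call for 8 of 10, against 46.8%. The exceptions were key and Dif. A promoter call in each of the 3 replicate lists was present for 5 of 10 (imd, pirk, Rel, spz and cact), against 25.1%. At pirk and Rel the promoter calls of the replicates were not all at the same place. The windows held 53 pooled calls, or 34 per 100 kb, against 23.1 per 100 kb in the windows of all protein-coding genes. In replicates 1, 2 and 3 the members' windows held 39.2, 30.8 and 28.2 calls per 100 kb, against 25.7, 24.4 and 24.2. The relaxed lists include background, by the authors' own name for them. Of the 53 pooled calls, 3 (5.66%) were in the IDR list, against 10.4% of all pooled calls, and 4 (7.55%) were in the next 2896 ranks. The median rank of the 53, 14213, was close to the 13878 of the whole list. Of the 53, 12 (22.6%) were matched in all 3 replicates, against 22.9% of all pooled calls.

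By place, 13 of the 53 pooled calls were at own promoters, 5 at promoters of other genes, 19 in own introns, 5 in own coding sequence, 1 in an own 5′ UTR and 10 in the flanks. Promoters of any gene thus held 34.0% of the members' pooled calls, against 27.0% of all pooled calls. The latter include calls outside the windows of genes, so these shares are not like for like. Of the 19 intronic calls, 10 were in Tl, 4 in Dif, 3 in cact and 2 in PGRP-LC, which are 4 of the longer genes of the set. The dl gene, at 13.5 kb, is longer than cact and PGRP-LC and had 0. The intronic share over all pooled calls is not given. Calls per kb ran from 0.22 at spz to 0.77 at Rel.

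**Figure D3:**
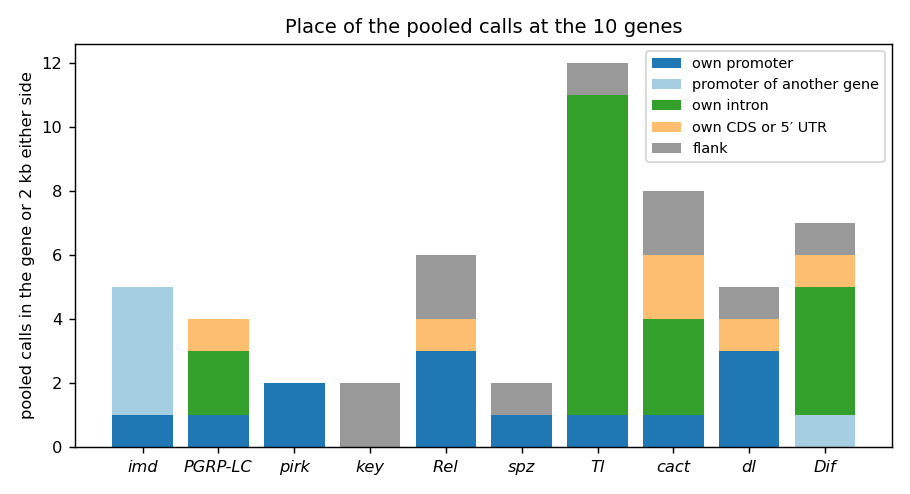
Number of pooled calls at each gene (bar height), split by where the summit lay. Promoter calls were found at 8 genes, and intronic calls at Tl, Dif, cact and PGRP-LC.

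Rel (FBgn0014018, chr3R:9044183-9047977, minus strand), the NF-kappaB factor of the Imd pathway, had promoter calls placed differently in the replicates. Replicate 1 ranked a promoter call at 1734, with a summit 368 bp downstream of the most 5′ start and 89 bp upstream of an internal start. Replicate 2 ranked its best promoter call at 3206 and replicate 3 at 4485, but these lay 317 bp and 159 bp upstream of the most 5′ start. The pooled list held 3 promoter calls: an upstream one at rank 7484, matched in replicate 2 alone, a downstream one at 10443, matched in replicate 1 alone, and another at 25264 with no match. The upstream pooled summit was also 298 bp from a TSS of Mst85C and 304 bp from one of Nmdmc, an enzyme of one-carbon metabolism. The highest-ranked Rel call, at 7480, lay beyond the 3′ end of the gene and ranked 9680, 12596 and 24553 in replicates 1, 2 and 3.

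The bases from 100 before to 100 after the summits of the matched Rel promoter calls are shown because the replicates differed between these places. They are from the dm6 plus strand, with motif matches in capitals.
Rel, upstream call, chr3R:9048247-9048447: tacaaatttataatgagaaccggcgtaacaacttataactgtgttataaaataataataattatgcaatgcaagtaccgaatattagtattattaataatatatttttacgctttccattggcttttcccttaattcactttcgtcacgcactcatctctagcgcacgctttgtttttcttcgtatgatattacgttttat
Rel, downstream call, chr3R:9047516-9047716: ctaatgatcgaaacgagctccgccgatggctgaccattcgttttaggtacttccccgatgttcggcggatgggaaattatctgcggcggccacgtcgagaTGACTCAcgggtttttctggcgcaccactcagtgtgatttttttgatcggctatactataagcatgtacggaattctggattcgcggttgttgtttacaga

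The downstream window, matched in replicate 1 alone, held an AP-1 match (TGACTCA) that began at the summit base itself. The upstream window held none of the 6 motifs. AP-1 was matched in 6 of the 53 pooled windows of the members (11.3%) and in 4.21% of all pooled windows. With 50 bases either side of the summit the members' count was 2 of 53 (3.77%), at Rel and dl, against 2.07% of all pooled windows. Of those 6, 3 were at Rel, 2 of them in promoter calls and the other in the call beyond the 3′ end.

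The remaining Imd genes had pooled calls ranked from 13461 to 23449, and single replicates held better-ranked calls at each. PGRP-LC (FBgn0035976, chr3L:9338810-9348336, plus strand), the peptidoglycan receptor gene, had 4 pooled calls, the best 146 bp downstream of a start at rank 13461 and matched only in replicate 3, at 6979. Replicate 3 also listed a call in PGRP-LC coding sequence at 6877. The pirk gene (FBgn0034647, chr2R:21660967-21662995, minus strand), whose product binds PGRP-LC and imd and dampens signalling, had 2 promoter calls at ranks 15078 and 20340. The first was matched in replicates 1 and 3, at 28566 and 14085, and the second in replicates 2 and 3, at 29551 and 23550. The second pirk call was also 72 bp from a TSS of lncRNA:CR44748. The best replicate calls in the pirk window, at 6234 in replicate 3 and 8810 in replicate 2, were outside its promoter, that of replicate 2 at the promoters of CG42362 and CG42363. The key gene (FBgn0041205, chr2R:24785514-24787411, minus strand), for the regulatory subunit of the IkappaB kinase, had no promoter call in any list. Its 2 pooled calls lay in the flanks, at ranks 13625 and 21128, and replicate 2 listed a flank call at 6016, 1128 bp upstream of the start.

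The Toll ligand gene spz (FBgn0003495, chr3R:27064990-27070070, minus strand), which encodes a cystine knot protein, had 2 pooled calls, both upstream of its single start. The stronger lay 1017 bp upstream, outside the promoter window, with a pooled signal of 64.2 against 79.8 for the weakest IDR call. It ranked 5931, 3002 and 11201 in replicates 1, 2 and 3, a mean of 6711 ± 4155 (SD, n = 3), with summits within 41 bp. The promoter call, 170 bp upstream, had a pooled rank of 5894 and ranked 25775, 7330 and 7291. At spz the positions of both calls thus varied little between replicates and their ranks varied widely.

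The dl gene (FBgn0260632, chr2L:17436830-17450364, minus strand) encodes Dorsal, the NF-kappaB factor that patterns the dorsoventral axis. Its strongest pooled call, 153 bp downstream of the most 5′ start, had a signal of 62.5, ranked 7456 and 9631 in replicates 1 and 2, and had no match in replicate 3. This summit was also 283 bp from a TSS of lncRNA:CR46204, so the call is not at a start of dl alone. A second call, 660 bp upstream of that start, ranked 3202, 12677 and 24064 in replicates 1, 2 and 3. Each of the other 2 dl starts had a pooled call within 48 bp, at ranks 20232 and 23520. The first was matched in replicate 1 alone and the second in no replicate.

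Tl (FBgn0262473, chr3R:26799041-26842403, plus strand) encodes the Toll receptor and, at 43.4 kb, is the longest gene of the set. It had 12 pooled calls, of which 10 were intronic, and a density of 0.253 per kb. The best, 725 bp downstream of the start, ranked 5349 and was matched at 7289 and 10282 in replicates 1 and 2. The promoter call itself, 22 bp from the start, ranked 18617 and was matched in replicate 1 alone. A group of 4 calls lay between 32497 bp and 35761 bp downstream of the start, of which 3 were matched in all 3 replicates. Their mean replicate ranks were 12152 ± 2382, 14633 ± 8845 and 25642 ± 5175 (SD, n = 3 each). In the same order, the replicate summits of these calls lay within 244 bp, 79 bp and 35 bp of each other.

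**Figure D4:**
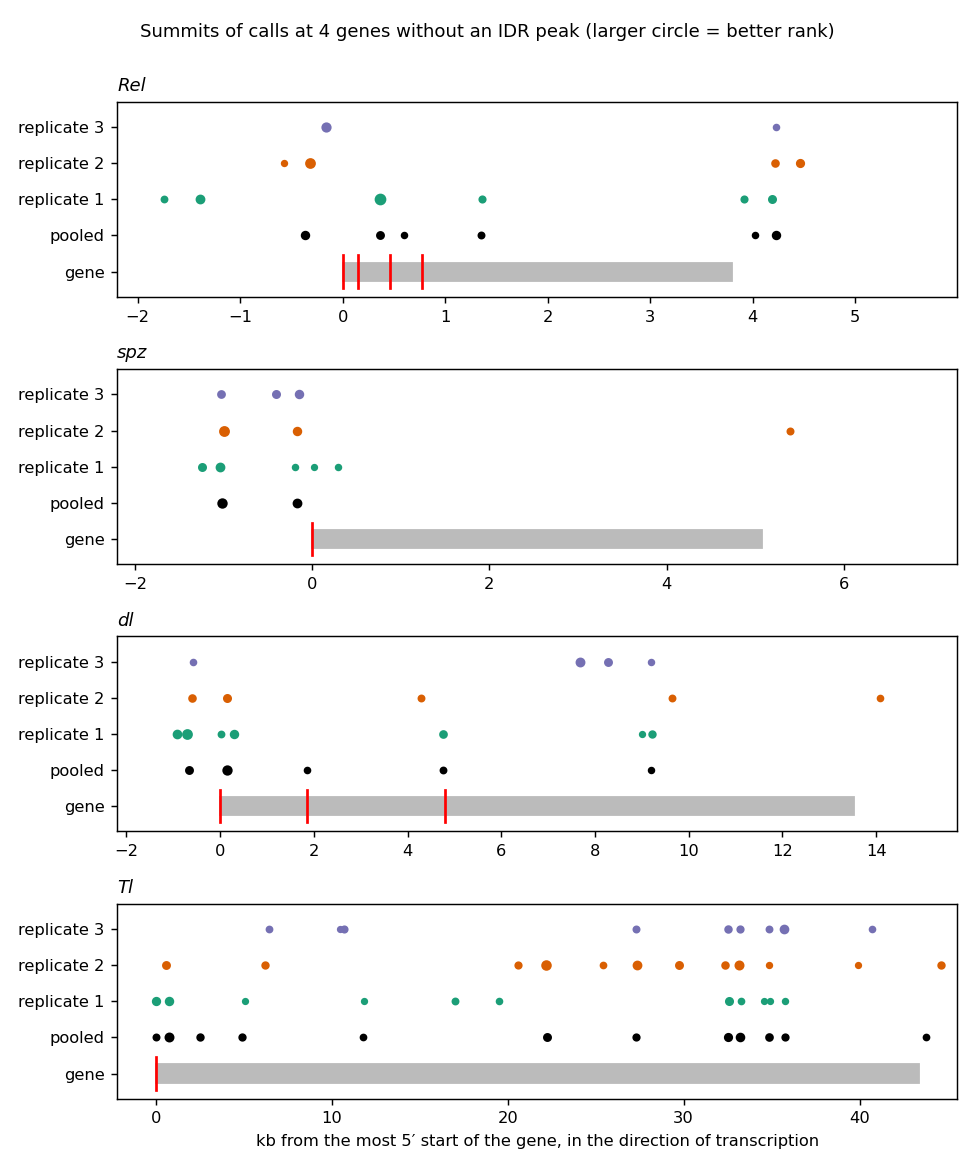
Summits of all calls at Rel, spz, dl and Tl, by list, against distance in kb from the most 5′ start along the direction of transcription; larger circles have better ranks, red bars mark annotated starts and grey bars the genes. At Rel the replicate 1 promoter summit lies inside the gene and those of replicates 2 and 3 lie upstream, while at spz each replicate has a summit at both pooled places.

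The ATF core TGACGT was in 4 of the members' 53 pooled windows (7.55%), against 5.40% of all pooled windows, and the full palindrome was in 0 of 53, against 0.811%. All 4 were in introns of PGRP-LC, Tl and cact. Their sites are shown because TGACGT is the core that ATF and CREB factors are known to bind, with its letters in capitals within 61 bases of the dm6 plus strand. ACGTCA is the same core on the other strand.
PGRP-LC, chr3L:9341316-9341376: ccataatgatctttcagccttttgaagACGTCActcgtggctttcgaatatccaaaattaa
Tl, chr3R:26801465-26801525: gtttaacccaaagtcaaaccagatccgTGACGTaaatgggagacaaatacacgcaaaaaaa
Tl, chr3R:26821171-26821231: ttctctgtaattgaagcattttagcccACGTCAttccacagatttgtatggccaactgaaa
cact, chr2L:16320367-16320427: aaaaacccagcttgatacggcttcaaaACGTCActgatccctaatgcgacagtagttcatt

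These calls had pooled ranks of 23449, 14474, 10036 and 13505 in that order, so none was near the IDR list. The PGRP-LC window held a second core match. The sites lay 59 to 70 bp from their summits, except the second PGRP-LC match at 36 to 41 bp. The PGRP-LC call was matched in replicate 1 alone, at 22639, and the call at the first Tl site in no replicate. The call at the second Tl site ranked 3682 in replicate 2 and had no match in the others. That at cact ranked 9595 and 5331 in replicates 2 and 3 and had no match in replicate 1.

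Other genes of both pathways were taken from 7 lists of 73 genes in all. An IDR promoter call was present for 12 (16.4%), an IDR call in the gene or 2 kb for 18 (24.7%) and a pooled promoter call for 35 (47.9%), all near the shares of all protein-coding genes given above. Intracellular Toll signalling genes had IDR promoter calls in 3 of 7 cases (Myd88, pll and Traf6), Imd inhibitors in 3 of 6 (POSH, scny and trbd) and Imd signalling genes in 3 of 10 (Tak1, eff and ben). Peptidoglycan recognition genes had 1 of 9 (PGRP-LB), the extracellular Toll cascade 1 of 13 (Spn27A), the Toll and spz paralogs 1 of 13 (Toll-7) and antimicrobial peptide genes 0 of 15. A pooled promoter call was present for 1 of the 15 antimicrobial peptide genes and for 7 of 7 Toll signalling genes, against 46.8% of all protein-coding genes. The lists are small, and several of the peptide genes lie side by side, so they are not 15 separate places. Of the 12 genes with an IDR promoter call, 6 had a call that was also within 500 bp of a TSS of another gene, as at imd. The same share over all protein-coding genes is not given, so this count cannot be set against a background.

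Among the 29 IDR calls at these 73 genes, that at the ubiquitin ligase gene POSH, also at a start of Ns2, ranked 248, 299 and 193 in replicates 1, 2 and 3, and that at ben, a ubiquitin-conjugating enzyme gene, ranked 1459, 385 and 723. Myd88, the adaptor below Tl, ranked 1312, 1211 and 1894, and Traf6, with GIIIspla2 as neighbour, ranked 2109, 748 and 1321. The call at pll, the kinase below Myd88, also at a start of TfIIA-L, ranked 7820, 1554 and 2475. The genes Tab2, Diap2, dnr1, spirit, Pli and Def had IDR calls outside their promoters and none inside. PGRP-LB, eff, trbd and Spn27A had such calls beside a promoter call, that in an eff intron at 172, 314 and 376. A call at 124, 159 and 126 was 1985 bp upstream of the antimicrobial peptide gene Def but at the promoter of magu. Another, at 2999, 1387 and 1152, lay 1262 bp upstream of Def, with no TSS of another gene within 500 bp.

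**Figure D5:**
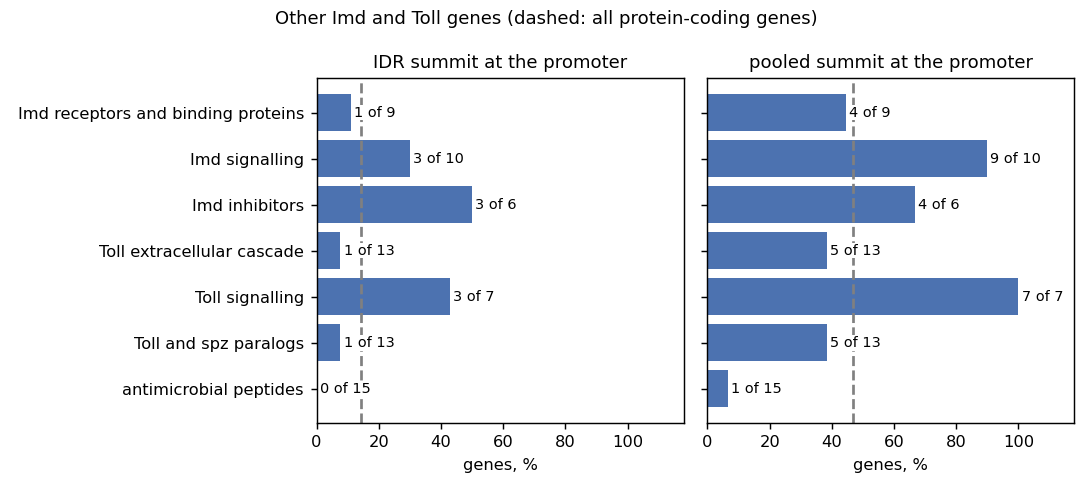
Share of the genes of each further pathway list with an IDR summit (left) or a pooled summit (right) within 500 bp of an own TSS, with counts beside the bars and the share over all protein-coding genes dashed. Antimicrobial peptide genes stand at 0 of 15 and 1 of 15, and Toll signalling genes at 3 of 7 and 7 of 7.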

How the data were processed

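The 3 chromatin immunoprecipitation samples form 1 group of embryos. Peak lists on assembly dm6 were used as deposited: 1 relaxed list per replicate and 1 for the pooled replicates, both including background calls, and the IDR list, per the labels and file descriptions. Signal, the value the authors deposited for a peak, was used to rank and describe calls inside 1 list at a time. The −log10 q value, also deposited, was used in an alternative ranking. The name of the aligner or peak caller, like the IDR threshold, is not given in the sources used here. Read depth is unknown. The dm3 lists were not used.

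Genes came from Ensembl release 115 without pseudogenes and transposable elements, and sequence from the release 6 genome, which is dm6. Calls in different lists were matched if 50% or more of the narrower one lay in the other, so 2 close pooled calls can match 1 replicate call. No test was made: there is 1 group, and the members, further gene lists and motifs were chosen with earlier results of these data known. All 10 members are named, and of the further lists only genes with an IDR call within 2 kb, beside neighbours with a TSS within 500 bp of summits whose ranks are given. Matching and promoter assignment were checked on simulated intervals. Python 3.11.15, numpy 2.4.6, pandas 2.3.3 and matplotlib 3.10.9 were used.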

Additional observations from a re-analysis of the deposited data

How the results depend on the processing

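Counts at the 10 genes were recomputed with other promoter windows, flanks, start sites, overlap rules and lists. No paired analysis was possible because there is 1 group. The IDR list was not rebuilt without a replicate. Requiring its calls to be in the top 2896 of the remaining replicates, leaving out replicates 1, 2 or 3, gave 2 genes with a promoter call, 3 genes, 3 calls and 0 intronic calls; the ranks above fix this outcome, so it says nothing of stability. With a promoter window of 250 bp, 1 gene had an IDR promoter call, because the imd summit lay 252 bp from its start. The share over all protein-coding genes is not given for this window, so the count has no background. With 5 kb either side, 5 IDR calls were counted. In the top 2896 calls of replicate 1, 5 calls and 1 intronic call were counted. Judged by the structure of Dif alone, an alternative chosen after seeing the data, 1 IDR call was intronic. With 50 bases either side of the summit, 1 pooled call held the ATF core (1.89%, against 2.75% of all pooled calls). With 100 bases there were 4 (7.55%, against 5.4%), since the other sites lay 59 to 70 bp from their summits. With 200 bases there were again 4 (7.55%, against 10.1%). The members' share was thus above that of all pooled calls with 100 bases only. AP-1 was in 6 pooled calls with 100 bases, in 2 with 50 and in 11 with 200 (20.8%, against 8.22% of all pooled calls), so its count depends on the window. Ranking by −log10 q left the mean replicate ranks of the cact and imd IDR calls at 301.3 and 384.3. That of Dif moved from 1936.3 to 1939.3. Ties in q were ordered by signal, so this is not a separate check. Matching by summits within 100 bp changed none of the 3 means. The summit distances given above fix that outcome, so it says nothing of stability.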
